A study of Homo sapiens with 4 samples.

Results

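In HepG2 cells treated with siPATZ1, the transcript of 1 gene could read as upregulated at one microarray probe and as downregulated, or as little moved, at another. The genes described here are those whose own probes differed in this way. A gene was taken when at least 2 of its probes were detected on all 4 arrays (detection p-value under 0.01) and when its probe differences lay at least 0.7 apart on the log2 scale. The probe difference is the mean log2 signal of the siPATZ1 arrays minus that of the siCTRL arrays, and the distance between the highest and the lowest difference of a gene is called its spread. Of 1834 genes with several detected probes, 50 met this rule, or 2.73% of them. The genes were thus chosen by their measured differences, which are given below as a description without a test, and symbols that begin with ZNF were left out (36 such genes had several detected probes, 3 of them past the threshold).

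Most human genes give rise to more than one mature transcript. Alternative start sites change the first exon, alternative splicing changes the exons in between, and alternative cleavage and polyadenylation sites change the last exon or the length of the 3' untranslated region. A bead array probe reads one short stretch, which only the transcripts that hold this stretch contribute to, so that a probe in a shared exon and one in an isoform's own 3' end can report different amounts from the same gene. A probe may also read RNA other than the mature transcript it is named for, such as a retained intron, an antisense transcript or a near-identical copy elsewhere. In RNA pooled from many cells, fewer cells that carry an RNA and less of that RNA per cell cannot be told apart.

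HepG2 is a human liver cancer line. Both groups received 60 pmol of siRNA by reverse transfection with Lipofectamine RNAiMAX for 48 h, siPATZ1-treated cells an siRNA directed at PATZ1, a zinc finger transcription factor, and siCTRL-treated cells a scrambled one. Total RNA was hybridised to Illumina HumanHT-12 v4 arrays, 2 per group. The sources do not say if the duplicate arrays were separate cultures, and SE and p-values therefore describe array-to-array variation that may be technical.

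The probe signals were scaled by the authors to a mean of 518 on every array, and 15980 and 15236 probes were detected on the siPATZ1 arrays, against 14222 and 14384 on the siCTRL arrays. None of the 3 PATZ1 probes was detected on any array (lowest detection p-value 0.0649), so the arrays did not check the knockdown. The study itself reported less PATZ1 mRNA by qRT-PCR and less PATZ1 protein by western blot in siPATZ1-treated HepG2 cells. Of 24 hepatocyte genes with a probe, 6 were detected on all 4 arrays (ALB, FOXA1, FOXA2, CPS1, KRT8 and KRT18) and 17 on none, AFP, APOA1, TTR and SERPINA1 among them. The summed signal of the hepatocyte genes was 9383 and 9198 on the siPATZ1 arrays and 9153 and 7918 on the siCTRL arrays. Of the fibroblast genes 1 of 7 (ACTA2) was detected on all arrays, and 4 of 7 on at least 1 array. Of the leukocyte, endothelial and other epithelial genes with a probe, 0 of 4, 0 of 4 and 0 of 2 were detected on all arrays. On at least 1 array the numbers were 1, 0 and 0. Most defining transcripts of secreted liver proteins were therefore not detected in cells labelled as HepG2, and the part of this in the results below was not tested.

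The 50 genes had 133 probes detected on all 4 arrays. Of these, 37 were at least 1.4-fold higher in siPATZ1-treated cells, 19 at least 1.4-fold lower and 77 within these limits, where 5.55% and 2.84% of all 13287 detected probes were past 1.4-fold up and down. In 4 genes, BRI3BP, CCDC50, FKBP14 and LAMP2, probes passed 1.4-fold in opposite directions. These genes are 0.218% of all genes with several detected probes. The rule takes every gene whose probes do so, and this share is therefore no separate background. Another 24 genes had probes past 1.4-fold that were all higher, 15 had probes past it that were all lower, and 7 had none past it on either side. The highest and lowest probe lay on opposite sides of 0 in 45 of the 50 genes (90%), against 33.9% of the other genes with several detected probes. A wide spread itself favours opposite sides, so nothing is read from this count. In NACC2, TRAK1, EMC6 and CSTF3 every probe was above 0, and in AK4 every probe was below it.

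**Figure D1:**
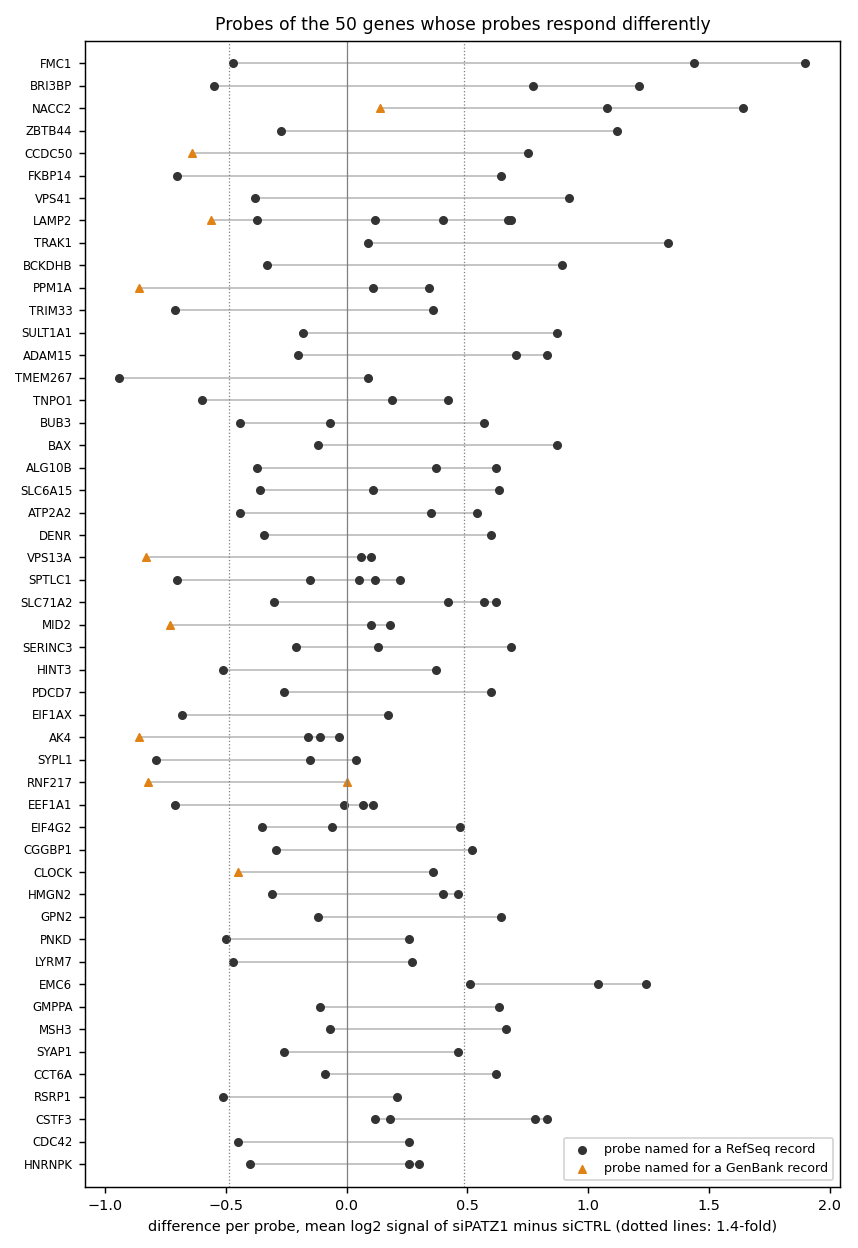
Difference of each detected probe (x axis, mean log2 signal of siPATZ1 minus siCTRL) for the 50 genes, from the widest spread at the top to the narrowest at the bottom. Dots are probes named for a RefSeq record, triangles those named for another GenBank record, and dotted lines mark 1.4-fold. The spread ran from 0.70 for HNRNPK to 2.37 for FMC1, and most triangles lie at the left end of their gene's line.

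Spreads of this size lay in the far tail of a distribution that was mostly narrow. The median spread was 0.91 in the 50 genes (quartiles 0.785 and 1.05), against 0.16 in the 1784 others (quartiles 0.0739 and 0.279). The number of probes bore on the chance to be included. Among genes with 2 detected probes 26 of 1557 (1.67%) met the rule, among those with 3 probes 18 of 244 (7.38%), and among those with 4 or more 6 of 33 (18.2%). The median spread was 0.146, 0.287 and 0.403 in these classes, and a gene with more probes had more chances to meet the rule.

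**Figure D2:**
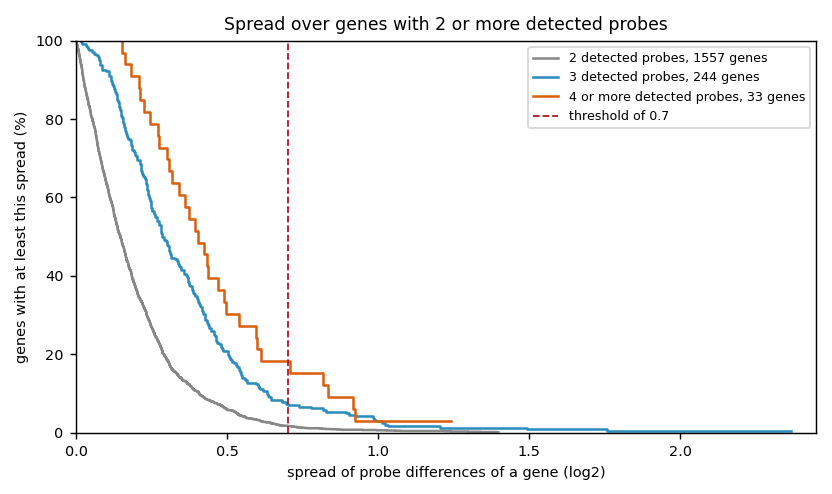
Share of genes (y axis, %) whose probe differences span at least the value on the x axis (log2), for genes with 2, 3 and 4 or more detected probes. The dashed line marks the threshold of 0.7, which 1.67%, 7.38% and 18.2% of the genes reached.

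The threshold divides a continuum. Just inside it were CSTF3 with a spread of 0.709, CDC42 with 0.703 and HNRNPK, which met it at 0.70. Just outside lay UBE2G1, a ubiquitin-conjugating enzyme gene, with 0.699, the RNA-binding protein gene RBM12 with 0.695 and MAP6, a microtubule stabiliser gene, with 0.683. Without siCTRL 2 the rule took 95 genes, 46 of the 50 among them, and without any 1 of the other arrays it took 53 to 62. The spread of 31 genes was 0.7 or more whichever array was left out. After background correction (neqc) 99 genes met the rule and 49 of the 50 were among them, the exception being EMC6.

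On single arrays, the log2 ratio of the high to the low probe was above both siCTRL values on both siPATZ1 arrays in 50 of the 50 genes. The same held in 48.7% of all genes with several detected probes, and as the rule favours this order for a wide spread, nothing is read from the count. The spread exceeded 2 SE in 49 genes, but the rule took wide spreads, so nothing is read from this count either. The median SE of the spread was 0.172. In VPS41 it reached 0.58. A further test (limma, 2188 pairs, Benjamini-Hochberg) set the brightest detected probe of each gene against each of its other detected probes. Symbols that begin with ZNF were included, and the high and low probe of a gene were not always a tested pair. Of these pairs, 2.29% passed an adjusted p of 0.05. Among the 83 pairs from the 50 genes 39 did, a count that rests on the same contrast as the rule.

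**Figure D3:**
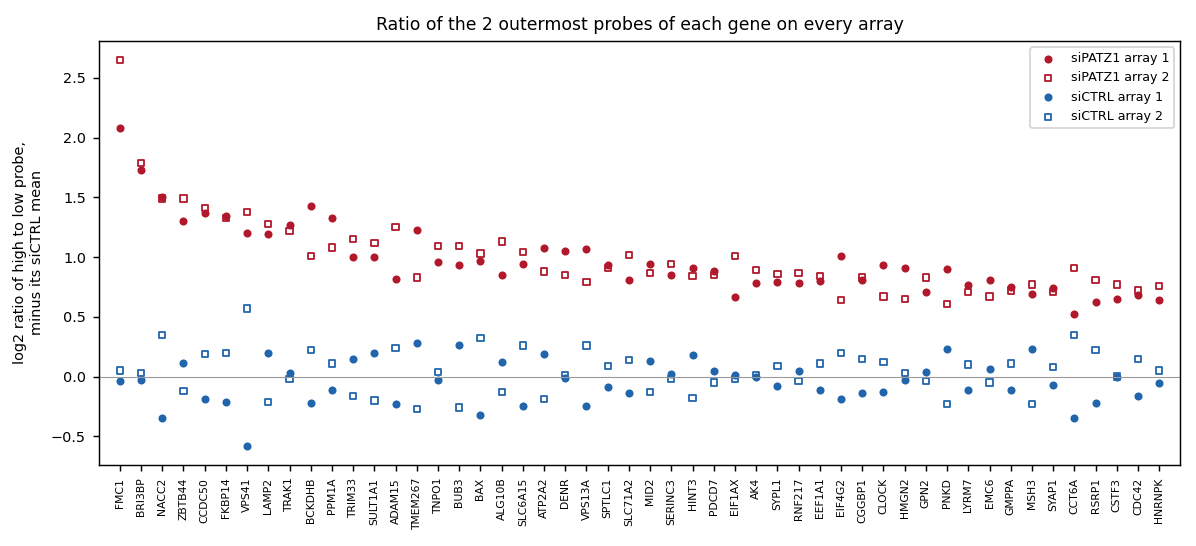
Log2 ratio of the high to the low probe of each gene on every array, given relative to its siCTRL mean (y axis), for the 50 genes in order of spread. Red symbols are siPATZ1 arrays and blue ones siCTRL arrays. The red symbols lie above the blue ones in every gene, and the blue symbols of VPS41 are the farthest apart.

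The genes are given below in order of what their products do, which is no test of any such grouping. A probe was not placed on exons or 3' ends, so the accession it is named for does not establish which transcripts it reads. FMC1, on chromosome 7, encodes an assembly factor of the mitochondrial ATP synthase and had the widest spread of all, 2.37 (SE 0.29, n = 2 arrays per group). Its first probe gave signals of 1563 and 2119 on the siPATZ1 arrays and 541 and 440 on the siCTRL arrays, 3.73-fold higher in siPATZ1-treated cells. The second, at 587 and 688 against 207 and 265, was 2.71-fold higher. Both siPATZ1 values of these probes lay clear of both siCTRL values. The third probe moved the other way, with 1016 and 927 in siPATZ1-treated and 1533 and 1172 in siCTRL-treated cells, a difference of -0.47. All 3 probes are named for the same RefSeq record, so that their accession does not separate them. RefSeq also lists a readthrough gene, FMC1-LUC7L2, which runs from FMC1 into the neighbouring splicing factor gene.

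BCKDHB, which encodes a subunit of the dehydrogenase that breaks down branched-chain amino acids, had a spread of 1.22 (SE 0.31). A probe named for NM_000056 read 320 and 278 on the siPATZ1 arrays, against 154 and 167 on the siCTRL arrays. One named for NM_183050 read 175 and 204, against 265 and 212, and was dim like the siCTRL values of the first. The first was 1.85-fold higher in siPATZ1-treated cells without overlap, and the second fell short of 1.4-fold, with its closest values of 204 and 212 nearly touching.

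TRAK1, the adaptor that couples mitochondria to kinesin motors, had probes named for different transcripts. The NM_014965 probe had 549 and 522 in siPATZ1-treated cells and 223 and 205 in siCTRL-treated cells, a difference of 1.33. The NM_001042646 probe had 335 and 331, against 323 and 306, a difference of 0.09. Every array of the first probe lay far from those of the other group, whereas the second was 1.06-fold higher. The spread was 1.24 (SE 0.04), among the most even over the arrays, and leaving out any 1 array gave 1.21 to 1.27. TRAK1 has 12 curated RefSeq transcripts and 3 listed start sites, whose sequences are given here because they show how far the first exons of its transcripts lie apart. They are credited to RefSeq (GRCh38.p14, plus strand), with the first transcribed bases in capitals:
TRAK1 start 1, chr3:42087100-42087229: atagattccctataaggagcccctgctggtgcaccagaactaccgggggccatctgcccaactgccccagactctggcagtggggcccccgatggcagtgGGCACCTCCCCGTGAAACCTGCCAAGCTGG
TRAK1 start 2, chr3:42091257-42091386: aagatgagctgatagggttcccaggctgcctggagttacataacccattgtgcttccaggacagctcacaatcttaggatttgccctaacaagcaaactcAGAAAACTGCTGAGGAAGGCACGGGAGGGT
TRAK1 start 3, chr3:42149135-42149264: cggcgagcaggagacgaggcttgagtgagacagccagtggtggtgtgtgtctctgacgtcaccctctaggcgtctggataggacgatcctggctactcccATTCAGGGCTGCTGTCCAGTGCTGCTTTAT
The second start lies 4.16 kb and the third 62 kb downstream of the first, and in these windows the GC content was 63.8%, 50% and 58.5% with 3, 1 and 6 CpG dinucleotides. Which of these starts the transcripts read by each probe use was not tested.

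AK4, a mitochondrial adenylate kinase gene, had 4 detected probes of which 3 differed by -0.03 to -0.16. The fourth, named for the GenBank record AK026966, had 976 and 898 on the siPATZ1 arrays and 1697 and 1707 on the siCTRL arrays. It was the only AK4 probe past 1.4-fold, with a difference of -0.86.

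LAMP2, on chromosome X, encodes an abundant lysosomal membrane protein whose forms LAMP-2A, -2B and -2C arise from alternative last exons, LAMP-2A being the receptor of chaperone-mediated autophagy. It had 6 detected probes, the most of any of the 50 genes. The probes named for the LAMP-2A transcript (NM_002294) had 875 and 868 in siPATZ1-treated against 596 and 493 in siCTRL-treated cells, and 1338 and 1162 against 779 and 784. These are differences of 0.68 and 0.67, both without overlap. The probes named for the LAMP-2B transcript (NM_013995) did not move as one. The first had 440 and 502 against 310 and 409 (difference 0.40), the second 1436 and 1152 against 1018 and 1367 (0.12, with overlapping groups) and the third 1989 and 1790 against 2659 and 2247 (-0.37). A dim probe named for a GenBank clone (BC040653) was lowest, at 169 and 158 on the siPATZ1 arrays and 229 and 252 on the siCTRL arrays, a difference of -0.56. Probes that share the LAMP-2B name thus differed from each other, and none of the 6 was placed on an alternative last exon here.

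VPS41, a subunit of the HOPS complex that tethers vesicles to lysosomes, had a spread of 1.30 that rested largely on 1 array. Its high probe had 727 and 705 on the siPATZ1 arrays and 241 and 596 on the siCTRL arrays, and its low probe 844 and 723 against 961 and 1074. The siCTRL arrays of the high probe differed by more than the second of them did from the siPATZ1 arrays. Without siCTRL 1 the spread was 0.72, and without siCTRL 2 it was 1.87.

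CCDC50, a ubiquitin-binding cytoplasmic protein gene, was 1 of the 4 genes with probes past 1.4-fold both ways. A RefSeq-named probe had 1615 and 1551 in siPATZ1-treated and 823 and 1072 in siCTRL-treated cells, 1.68-fold higher. The GenBank-named one (AK055652) was dim, with 160 and 150 against 241 and 242, a difference of -0.64. Neither probe overlapped between groups, and the spread was 1.39 (SE 0.19).

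**Figure D4:**
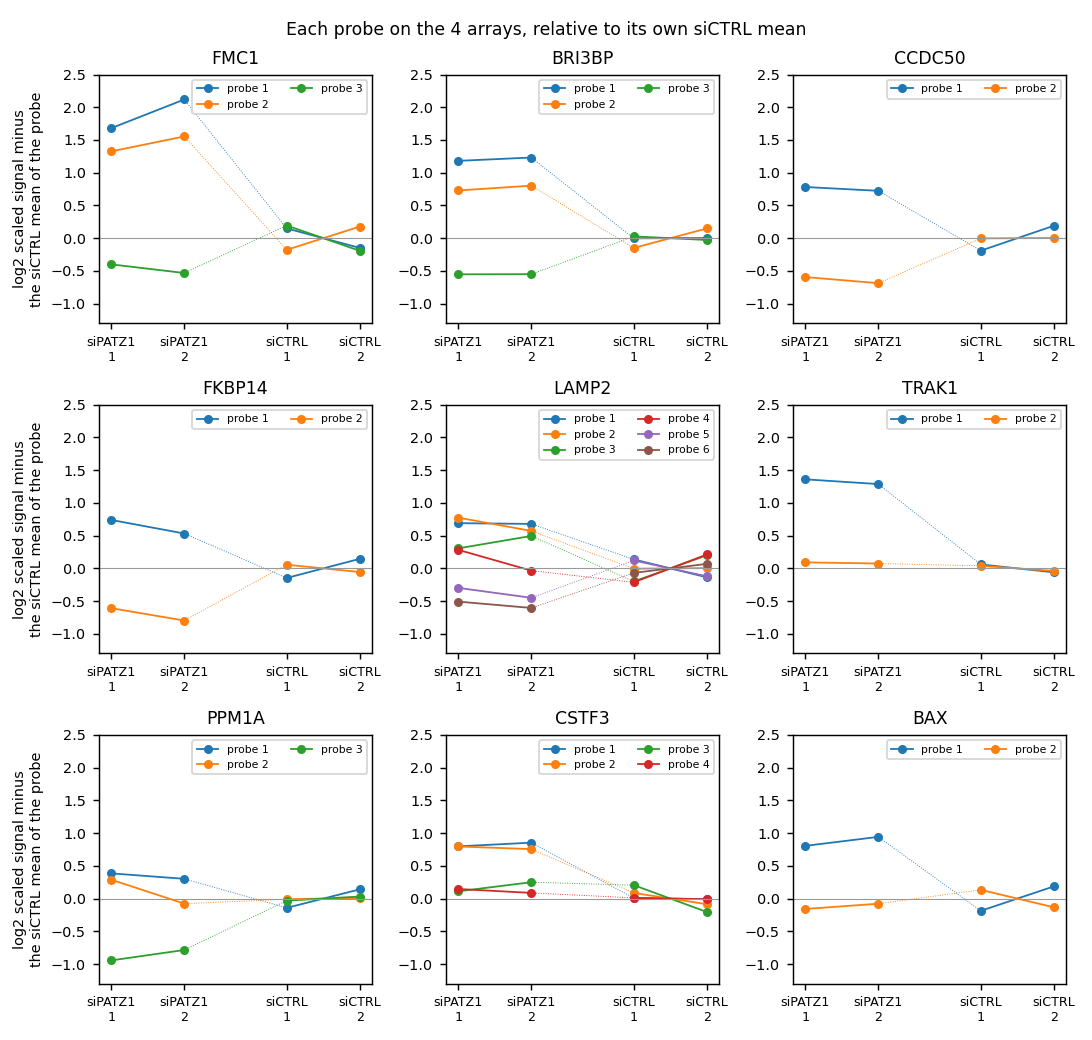
Log2 scaled signal of every detected probe of 9 genes on each array, relative to the siCTRL mean of the same probe (y axis), with the siPATZ1 arrays on the left and the siCTRL arrays on the right. Probes are numbered within a gene from the highest to the lowest difference, and dotted lines join the groups. In FMC1, BRI3BP, CCDC50 and FKBP14 at least 1 probe lies above and 1 below the siCTRL level on both siPATZ1 arrays, whereas in TRAK1 and CSTF3 some probes lie above it on both siPATZ1 arrays and the others lie near it.

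In the secretory pathway, FKBP14 encodes a prolyl isomerase of the endoplasmic reticulum that assists collagen folding. Its high probe read 320 and 277 on the siPATZ1 arrays against 173 and 212 on the siCTRL arrays, and its low probe 1348 and 1182 against 2135 and 1975. The first was 1.55-fold higher and the second had a difference of -0.70, both without overlap and both named for the same RefSeq record. BRI3BP, a membrane protein gene on chromosome 12, had the second widest spread, 1.76 (SE 0.04), with 3 probes of 1 record. The highest had 636 and 659 in siPATZ1-treated and 280 and 281 in siCTRL-treated cells, and the lowest 698 and 699 against 1043 and 1004. The replicate arrays of each group were nearly equal at both probes, and the groups were far apart in opposite directions (2.31-fold higher, and a difference of -0.55).

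SPTLC1, a subunit of the enzyme that starts sphingolipid synthesis, had 5 detected probes. Of these, 4 lay between -0.15 and 0.22, and 3 of those 4 overlapped between groups. The remaining one had 4087 and 3584 in siPATZ1-treated and 6396 and 6031 in siCTRL-treated cells, a difference of -0.70. In SLC71A2, a transporter family gene, the pattern was similar with another sign for the bulk of the probes, since 3 of the 4 had differences of 0.62, 0.57 and 0.42 and the fourth one of -0.30. TMEM267, a transmembrane protein gene, was led by a fall. Its low probe had 2097 and 2106 against 3421 and 4742, a difference of -0.94 and the lowest value of any probe of the 50 genes, whereas the other probe had 227 and 173 against 191 and 181 and overlapped.

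Among transcription and signalling genes, NACC2, a repressor with the same kind of BTB/POZ domain as PATZ1, had a spread of 1.49 (SE 0.35). Its RefSeq-named probes had 1657 and 1619 on the siPATZ1 arrays against 442 and 629 on the siCTRL arrays, and 341 and 320 against 157 and 154. They were 3.11-fold and 2.12-fold higher. The GenBank-named probe (AK094914) had 621 and 608 against 595 and 521, a difference of 0.14. ZBTB44, another BTB zinc finger gene, had 431 and 395 against 201 and 178 at one probe and 209 and 167 against 221 and 230 at the other, both named for 1 record. The first was 2.18-fold higher and the second, about as dim as the siCTRL values of the first, had a difference of -0.27.

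TRIM33, a ubiquitin ligase of the TGF-beta pathway, has an alpha and a beta form. The probe named for the beta transcript (NM_033020) had 691 and 670 in siPATZ1-treated and 590 and 474 in siCTRL-treated cells, and that for the alpha transcript (NM_015906) had 941 and 820 against 1440 and 1433. The difference was 0.36 at the beta-named probe and -0.71 at the alpha-named one, without overlap in either. PPM1A, a phosphatase that acts on SMAD proteins of the same pathway, had probes for NM_177952 and NM_177951 with differences of 0.34 and 0.11. Both were dim, with 232 and 219 against 161 and 196, and 187 and 145 against 152 and 154. A GenBank-named probe (AK124299) of PPM1A, about as dim on the siPATZ1 arrays, had 154 and 172 against 290 and 303, a difference of -0.86. ADAM15, a membrane metalloprotease gene with 12 curated transcripts and a listed readthrough with EFNA4, had 3 probes named for 3 transcripts. Their differences were 0.83 for NM_207195, 0.70 for NM_003815 and -0.20 for NM_207191. The NM_207195 probe had 2012 and 2178 on the siPATZ1 arrays against 1075 and 1284 on the siCTRL arrays. The NM_207191 probe was far dimmer, with 201 and 162 against 223 and 192, and overlapped between groups.

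BAX, a pro-apoptotic BCL2 family gene, belongs to the genes that were also read by qRT-PCR in the study. The probe named for the epsilon transcript (NM_138764) had 1257 and 1383 on the siPATZ1 arrays and 632 and 819 on the siCTRL arrays, 1.83-fold higher without overlap. That for the beta transcript (NM_004324) had 227 and 240 against 278 and 231 and overlapped. The spread was 1.00 (SE 0.32), and 0.68 without siCTRL 1. The study's primer pair is shown because a PCR product, like a probe, reads only the transcripts that hold both ends of it. No base is marked by capitals:
BAX forward primer: ggcccttttgcttcagggtttca
BAX reverse primer: cgtcctggagacagggacat
Which BAX transcripts this pair amplifies was not tested, as the transcript sequences were not used here. SULT1A1, a phenol sulfotransferase gene, had probe differences of 0.87 and -0.18. It has near-identical paralogs on chromosome 16, so that its signals may include theirs, and the same caution holds for EEF1A1, HMGN2 and ALG10B.

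CSTF3 encodes a subunit of the cleavage stimulation factor, which acts at polyadenylation sites, and its own RNA is known to end either at the full-length 3' end or early, within an intron. The probes named for the short transcript NM_001033505 had 2596 and 2700 in siPATZ1-treated against 1502 and 1485 in siCTRL-treated cells, and 1497 and 1455 against 915 and 812. These probes were 1.77-fold and 1.71-fold higher. The probe named for the full-length transcript (NM_001326) had 1849 and 1774 against 1683 and 1658, a difference of 0.12. A probe for the other short transcript, NM_001033506, had 295 and 325 against 315 and 237 and overlapped. CSTF3 thus split into 2 probes that were clearly higher and 2 that were within 1.4-fold, with a spread of 0.709 that was 0.65 without siPATZ1 2. RefSeq lists 1 start site for the gene (GRCh38.p14, minus strand), printed to show where its annotated transcripts begin. Which start the transcripts read by each probe use was not tested here either. Capitals mark the first transcribed bases:
CSTF3 start, chr11:33161451-33161580: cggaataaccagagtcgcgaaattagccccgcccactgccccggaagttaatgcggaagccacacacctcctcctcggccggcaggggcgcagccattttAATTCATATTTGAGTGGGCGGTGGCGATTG

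CDC42, a cell polarity gene with alternative last exons, had 572 and 577 against 422 and 547 at one probe and 973 and 959 against 1285 and 1346 at the other. Both probes are named for the same record and both were separate between groups, with differences of 0.26 and -0.45. Its spread was 0.55 without siCTRL 1. HNRNPK, an RNA-binding protein gene, had differences of 0.30, 0.26 and -0.40 at 3 probes of 1 record.

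Translation factor genes were also found among the 50. EIF1AX, which takes part in start codon selection, had 2329 and 2257 in siPATZ1-treated against 2019 and 2067 in siCTRL-treated cells at one probe and 559 and 427 against 767 and 798 at the other. These are differences of 0.17 and -0.68 from a gene with 1 curated transcript. DENR, a factor of ribosome recycling and reinitiation, had differences of 0.60 and -0.34, and its spread was 0.95 (SE 0.10). EIF4G2, a relative of the scaffold protein eIF4G, had differences of 0.47, -0.06 and -0.35. These genes and EEF1A1 were named after their values were seen, as were the other genes below that are not among the widest spreads.

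In genes with at least 3 detected probes, it was mostly a single low probe that stood apart. Of the 24 such genes, 18 (75%) had their widest gap just above the lowest probe, 4 (BUB3, SLC6A15, SERINC3 and EIF4G2, 16.7%) had it just below the highest one, and LAMP2 and CSTF3 were split into groups of several probes. Among the 253 other genes with at least 3 detected probes the shares were 49.4%, 48.6% and 1.98%. These shares come from the same differences as the rule and are a description. EEF1A1, the elongation factor gene, is an example. In 3 of its probes, with very strong signals of 29067 to 38664, the difference was -0.01 to 0.11. Whether so strong a signal limits the difference was not tested. The fourth probe had 461 and 473 on the siPATZ1 arrays against 803 and 723 on the siCTRL arrays, a difference of -0.71.

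Some probes are named for a GenBank clone rather than a RefSeq transcript. Of the 50 genes, 9 (18%) had a detected GenBank-named probe, against 44 of the 1784 others (2.47%). At least 3 detected probes were found more often in the 50, and these shares were not compared at equal probe numbers. In all 9 a GenBank-named probe was the lowest. In RNF217, a ubiquitin ligase gene, this holds by necessity, since both probes carried such names. In the 8 genes with both kinds, among them CLOCK, the circadian transcription factor gene, VPS13A, a lipid transfer protein gene, and MID2, a TRIM family gene, the GenBank-named probe was lower than the mean of the RefSeq-named ones by a median of -0.89 (quartiles -1.12 and -0.84). In the other genes with both kinds it was lower in 26 of 43 (60.5%), with a median of -0.11 (quartiles -0.33 and 0.11). The rule chose the 8 genes by these same differences and makes the gap wide, so nothing is read from its size or direction. VPS13A had 281 and 301 in siPATZ1-treated against 565 and 471 in siCTRL-treated cells at its GenBank-named probe, while its other probes differed by 0.10 and 0.06. The sequence and strand that these probes read were not used here, so that where on the gene they lie was not tested.

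The number of annotated transcripts was similar in the 50 genes and the others. The 50 genes had a median of 3 curated RefSeq transcripts (quartiles 2 and 5), as did the others (quartiles 2 and 6). A single curated transcript was listed for 11 of the 50 (22%) and for 291 of the others (16.3%), DENR, HINT3, PDCD7 and EIF1AX among the 50. At least 2 start sites were listed for 13 of 41 (31.7%) with any, against 518 of 1517 (34.1%). The probes of 27 of the 50 genes (54%) were named for different accessions, against 630 of the others (35.3%), and 48% of the 50 had at least 3 detected probes, against 14.2% of the others. A gene with more detected probes has more chances of several accessions, and the shares were not compared at equal probe numbers. In 25 of the 50 the high and the low probe carried the same accession, and in 25 different ones. The median gene length was 47.2 kb in the 50 and 29 kb in the others. A readthrough gene was listed for 2 of the 50 (FMC1 and ADAM15, 4%) and for 46 of the others (2.58%).

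Whether the enzymes and regulators that make transcript isoforms changed was examined over the whole table with limma, as 4 lists. Among all 9435 genes, siPATZ1-treated cells had 6.61% higher and 5.81% lower (adjusted p under 0.05, adjusted over 15090 probes, of which 6.74% were higher and 5.67% lower), with a median log2 fold change of -8e-04. Of 34 genes tested for cleavage and polyadenylation, 3 were higher and 1 lower, with a median of 0.07. The higher ones were CSTF3 by its short-transcript probe, which the choice of the 50 genes already used, the Integrator subunit gene INTS3 (log2 fold change 0.62, limma adjusted p = 0.0229) and SSU72, a phosphatase of the polymerase tail (0.62, adjusted p = 0.0257). The lower one was ELAVL1, whose product HuR binds AU-rich 3' ends, with 204 and 210 in siPATZ1-treated and 271 and 327 in siCTRL-treated cells (-0.76, SE 0.15, adjusted p = 0.024).

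Of 33 splicing regulators tested, 3 were higher and 1 lower, with a median of 0.01. PTBP3, a polypyrimidine tract binding protein gene, had 1743 and 1693 in siPATZ1-treated against 2737 and 2412 in siCTRL-treated cells (log2 fold change -0.68, limma adjusted p = 0.0199). U2AF1, which recognises the 3' splice site, had 1133 and 1180 against 662 and 747 (0.69, adjusted p = 0.0218). CELF1 was higher by 0.48 (adjusted p = 0.0489), and QKI was below detection in siCTRL-treated cells and at least 1.18-fold higher in siPATZ1-treated ones (limma adjusted p = 0.0396). This bound sets the siPATZ1 mean against the higher, per siCTRL array, of the lowest detected signal and the probe's own. Of 26 genes of nonsense-mediated decay and deadenylation, SMG1, a kinase of that decay pathway, was lower (-0.56, limma adjusted p = 0.0377) and no other passed, with a median of -0.02.

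Of 40 genes tested that textbooks cite for alternative promoters, last exons or 3' ends, 8 were higher and 3 lower, with a median of 0.14. CSTF3 and CDC42 were the only ones of them among the 50. CCND1, the G1 cyclin, was lower (-0.81, limma adjusted p = 0.0152), NFE2L1, a stress response transcription factor gene, was higher (0.71, adjusted p = 0.0189), and TPM1, a tropomyosin gene, was higher by its brightest probe (0.58, adjusted p = 0.0267). TPM1 lay just under the threshold, with a spread of 0.680. Without siPATZ1 1 or without siPATZ1 2, 0 genes passed in each of the 4 lists. Of all probes kept, 42 passed without siPATZ1 1 and 0 without siPATZ1 2, where 1650 probes were higher and 1268 lower at an unadjusted p under 0.05 from limma.

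**Figure D5:**
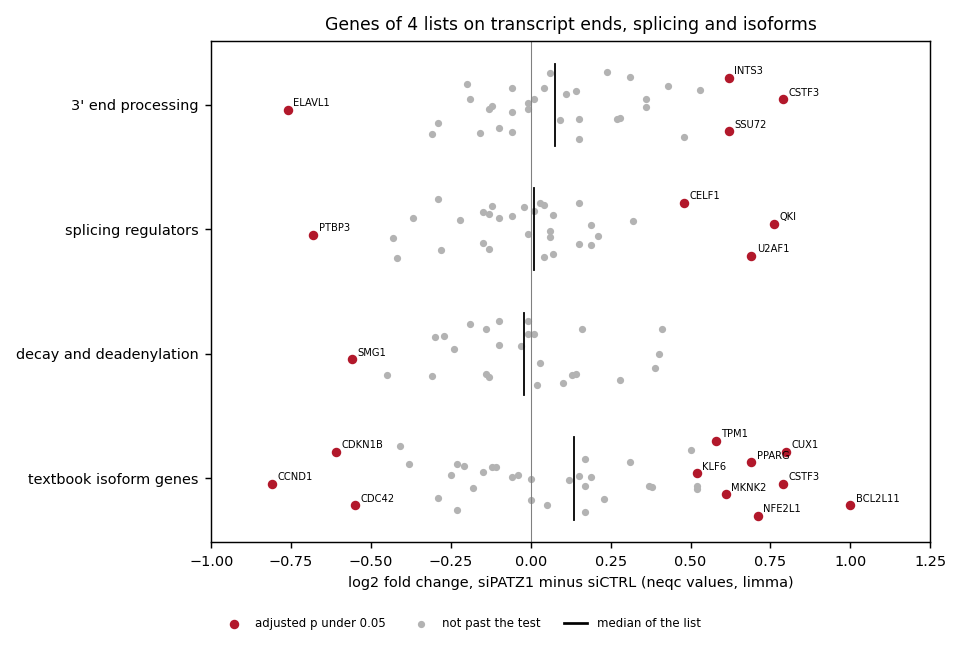
Log2 fold change (x axis, siPATZ1 minus siCTRL, limma on normalised values) of the tested genes of 4 lists, 1 dot per gene. Red dots passed an adjusted p of 0.05, grey dots did not, and black bars are the medians of 0.07, 0.01, -0.02 and 0.14 from top to bottom. Vertical position within a list has no meaning.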

How the data were processed

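RNA of siPATZ1-treated and siCTRL-treated HepG2 cells was measured on Illumina HumanHT-12 v4 arrays, 2 per group, grouped by the labels. The authors deposited probe intensity on a linear scale for 47323 probes without normalization, along with detection p-values from the negative controls. Another deposited table holds 47321 probes whose intensity was brought to a common mean by 1 factor per array (0.991 and 0.934 for siPATZ1, 1.03 and 1.05 for siCTRL). The submitters' processing notes name GenomeStudio, and their background treatment is unknown here. With 2 arrays per group, their number limits the precision.

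Probe differences were taken on the log2 scale from the authors' deposited scaled intensity. Gene names came from the platform's annotation and were updated through the RefSeq table for GRCh38.p14, and of the scaled probes 30112 had 1 gene, 8 several and 17201 no name here. For tests, the unscaled intensity was corrected and quantile normalized by neqc (offset 16) in limma 3.58.1 (R 4.3.3), put on the log2 scale and fitted by lmFit and eBayes over 15090 probes (detection p-value under 0.01 on both siPATZ1 or both siCTRL arrays), with Benjamini-Hochberg adjustment over them. The prior gave 5.32 degrees of freedom beside 2 residual ones. A gene of a list was represented by its brightest kept probe. The lists held 36, 39, 32 and 55 genes (3' end processing, splicing regulators, decay and deadenylation, textbook isoform genes).

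The genes and lists were chosen with earlier results of these data known. Named are the 15 widest spreads, all genes with probes past 1.4-fold both ways, those on a list or in the study's qRT-PCR, the 3 with most probes, the 3 on each side of the threshold and up to 4 called genes of each list. Other genes were named after their values were seen. Alternatives were other normalizations, detection filters, thresholds and a pseudocount of 50, a replicate block and leaving out each array. On simulated data with 200 features changed 2-fold, the probe test called 100% of them and 0.181% of unchanged probes (15090 probes), and the pair test 97.5% and 0.302% (2188 pairs). The simulated noise was independent, and its size per feature had been drawn toward a common value. Changes smaller than 2-fold were not simulated, so these shares may not hold for the arrays themselves.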

Additional observations from a re-analysis of the deposited data

How the results depend on the processing

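The rule took 50 genes, and it took 99 with neqc values, 174 with no detection filter, 22 among probes at or above the median signal, 152 at a threshold of 0.5, 17 at a threshold of 1, and 53 to 95 with 1 array left out. Genes with probes past 1.4-fold in opposite directions numbered 4, and 14 with neqc values, 7 with detection in either group, 7 with no filter, 0 at or above the median signal and 5 to 9 with 1 array left out. The other settings of values and filters stayed within 1.5 times these counts. No spread of the 50 genes changed sign under any setting, and the lowest was 0.37 (CCT6A without siCTRL 1). Of 262 values of named spreads under an alternative, 12 moved by more than the SE of the spread. Leaving out 1 array cannot move a spread by more than this SE. Scaling by 1 factor per array or another filter leaves it unchanged. Only neqc, quantile normalization and the pseudocount could therefore move a spread, and no stability is read from the count.

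In all, 1873 probes passed limma's test (54.3% of them higher), 79 with no detection filter and 0 to 2044 with 1 array left out. With the deposited scaled values 2608 passed, 64.6% of them higher. Of the probe pairs 50 passed (339 at an unadjusted p under 0.05), and 5 to 318 with 1 array left out. Genes of the 3' end processing list that passed numbered 4, with 7 for scaled values, 0 with no filter and 0 to 4 with 1 array left out. For splicing regulators there were 4, with 0 for no filter and 0 to 3 with 1 array left out. For decay and deadenylation there was 1, with 2 for scaled values, 2 for quantile normalization without background correction, 0 with no filter and 0 to 0 with 1 array left out. Among textbook isoform genes there were 11, with 0 for no filter and 0 to 6 with 1 array left out. The cause of these changes was not tested.

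With the replicate block, 134 probe pairs and 2017 probes passed, against 50 and 1873 without it. The correlation of the deviations of same-numbered arrays was -0.0284 over 15090 probes. With 2 arrays per group this cannot settle whether same-numbered arrays were handled together, which the labels do not say. The block moved no other count by over 1.5 times. With 2 arrays per group, an array that stands apart at 1 probe can set a spread, and the scaled values keep the background, which had a median of 82.6 and 82.8 on the siPATZ1 and of 85.3 and 87.8 on the siCTRL arrays among undetected probes. The median spread of the 50 genes was 1.06 after its removal by neqc and 0.91 in the scaled values.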

Other observations

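EMC6, a gene of the membrane protein insertion complex of the endoplasmic reticulum, was the 1 gene of the 50 in which every probe was past 1.4-fold in the same direction. Its probes had 967 and 975 in siPATZ1-treated against 423 and 397 in siCTRL-treated cells, 2985 and 2978 against 1558 and 1347, and 212 and 235 against 156 and 158. They were 2.37-fold, 2.06-fold and 1.42-fold higher, and its spread was 0.54 with neqc values.

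In PDCD7 and MSH3 the low probe had a very strong signal on every array. Whether so strong a signal limits the difference was not tested for these genes either. PDCD7, a component of the minor spliceosome, had 27903 and 26873 on the siPATZ1 arrays and 33196 and 32556 on the siCTRL arrays at that probe, and a difference of 0.60 at the other. MSH3, a mismatch repair gene, had 29198 and 27736 against 27206 and 32790, with overlapping groups, and 0.66 at the other probe.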
